A study of Mus musculus with 8 samples.

Results

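Spic, a transcription factor of macrophages that recycle iron, was examined together with genes that take up heme, break it down, and import, store or export iron. The set comprised Spic, Bach1, Cd163, Hmox1, Blvrb, Slc11a1, Slc11a2, Tfrc, Fth1 and Slc40a1. Each gene was read from the probe set whose only annotated symbol is that gene, which gave 9 of the 10 genes, among 19938 genes in all. Slc11a1 had no such probe set, so its expression was not analysed here. The set was selected on 1 measured value, the higher level of Spic in Il6ra-deficient macrophages in these same arrays, so the difference of Spic is described without a test. The other genes were named for their function, and the whole set was drawn up with earlier results of these data known.

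The IL6raKO macrophages were grown from bone marrow of IL6ralpha flox/flox LysMCre tg/wt mice, in which Cre recombinase under the lysozyme M promoter deletes Il6ra in myeloid cells. The Ctrl macrophages came from IL6ralpha flox/flox mice without Cre, so an effect of Cre itself cannot be told apart from loss of the receptor. Each genotype had 4 arrays, called biological replicates in the labels. All 8 cultures were grown for 10 days with M-CSF at 10 ng/ml, starved of serum overnight and given IL-6 at 50 ng/ml for 4 h, and no culture without IL-6 was measured. Values are log2 expression on a whole-transcript array, where 1 unit is a doubling of signal, and differences are IL6raKO minus Ctrl.

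Spic belongs to the ETS family and is closely related to PU.1. It is known from mouse studies to be needed for the red pulp macrophages of the spleen, which engulf old red blood cells. Heme is known to cause loss of the repressor BACH1, which frees Spic, Hmox1 and other genes from repression. Macrophages then split heme with heme oxygenase, store the iron in ferritin or export it through ferroportin. Ferritin and the transferrin receptor are also controlled through iron-responsive elements in their transcripts, and control of ferritin at translation is not seen by an array of transcripts.

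The targeted gene and macrophage markers served as checks of the labels. Il6ra was at 7.75, 8.1, 7.91 and 7.92 in IL6raKO, against 8.43, 8.4, 8.4 and 8.45 in Ctrl, a difference of -0.50 (SE 0.07, limma adjusted p = 0.0607 over all genes). The values do not separate probes of deleted exons from other Il6ra probes. Of 11 macrophage markers listed, 10 were measured, and all 10 probe sets were brighter than the median gene, from Fcgr1 at 9.07 to Lyz2 at 13.12. Ctrl replicate 4 stood apart from the other arrays, at 21.5 on the first principal component, where the others lay between -6.6 and 4.8. This array matters for Spic, as described next.

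Spic was at 7.36, 7.45, 7.35 and 7.26 in IL6raKO macrophages, against 6.95, 6.94, 6.97 and 7.15 in Ctrl. Every IL6raKO array lay above every Ctrl array, and the highest Ctrl value was that of replicate 4. The means were 7.36 ± 0.08 in IL6raKO and 7.00 ± 0.10 in Ctrl (SD, n = 4 each), a difference of 0.35, or 128% of the Ctrl level. Without Ctrl replicate 4 the difference was 0.40. Of all 19938 genes, 0.196% had a difference at least as high. These values chose the gene, and nothing is inferred from them.

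The sequence just before the Spic start is shown because Spic is the gene on which the set was selected. It is the 250 bases upstream of the RefSeq transcription start in GRCm38.p6, at chr10:88683024-88683273, on the minus strand and written 5′ to 3′.
Spic: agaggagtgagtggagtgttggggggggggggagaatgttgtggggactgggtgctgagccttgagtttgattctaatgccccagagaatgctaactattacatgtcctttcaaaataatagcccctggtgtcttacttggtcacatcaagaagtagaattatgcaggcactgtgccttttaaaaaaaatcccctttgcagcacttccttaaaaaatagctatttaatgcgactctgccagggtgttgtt
No letters are in capitals because none of the motifs searched was found. They were TGANNNNGC, the core of the element bound by BACH1 and NRF2, TTCNNNGAA, bound by STAT factors, and GAGGAA, bound by PU.1-type ETS factors. Each was read on both strands of the 300 bases from 250 before to 50 after the start. Such windows held TGANNNNGC in 41.3%, TTCNNNGAA in 8.3% and GAGGAA in 28.3% of the 32851 promoters of the RefSeq table. Of the 10 genes, 7 had a promoter there, and Hmox1, Slc40a1 and Slc11a2 were not searched. TGANNNNGC was found for Blvrb and Slc11a1, GAGGAA for Bach1 and Slc11a1, and TTCNNNGAA for 0 of the 7. A match of these letters does not show binding, and more distant elements were not searched.

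**Figure D1:**
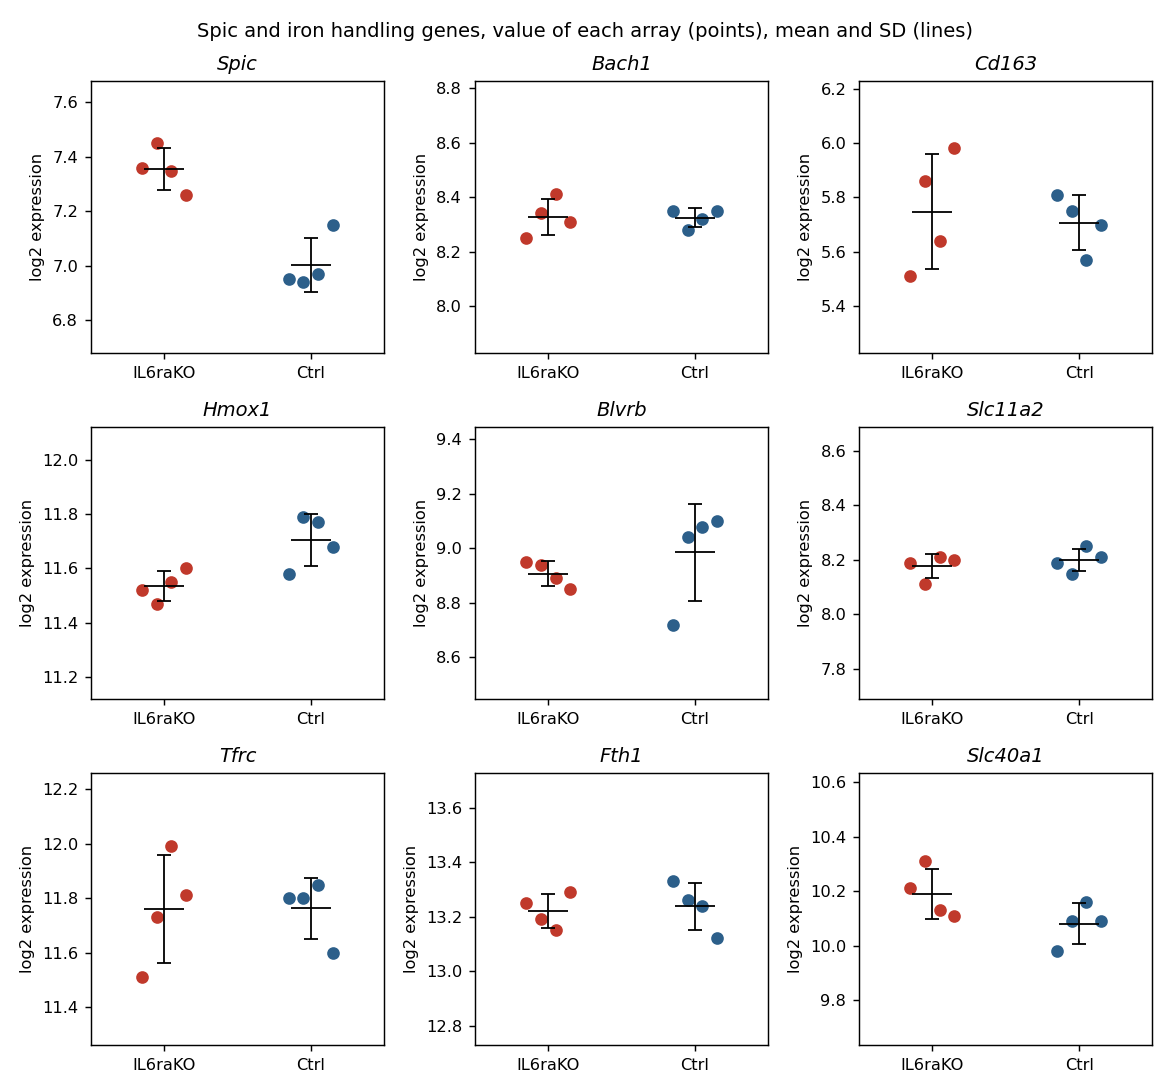
Log2 expression (y axis, each panel spanning 1 unit) of Spic and the 8 other measured genes in the 4 IL6raKO arrays (red) and the 4 Ctrl arrays (blue), with mean and SD in black. Spic is the panel without overlap between the genotypes, and in the other 8 panels the groups overlap.

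No iron handling gene was called in either direction. Of the 8 other measured genes, 0 passed an adjusted p under 0.05 in limma over all genes, where 0.0301% of all genes passed, all of them lower in IL6raKO. At an unadjusted p under 0.05 in limma, 1 of the 8 passed, Hmox1, on the lower side, against 7.28% of all genes. The groups overlapped for all 8, while 2.07% of all genes lay entirely above Ctrl and 2.37% entirely below. The median difference of the 8 was -0.01, equal at this rounding to the median of all genes, -0.01. The upper ends of their 95% confidence intervals lay between -0.02 for Hmox1 and 0.26 for Slc40a1 and Cd163. Whether each difference departs from that of Spic was not tested. Fewer cells of a type and less RNA per cell cannot be told apart in these bulk cultures.

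**Figure D2:**
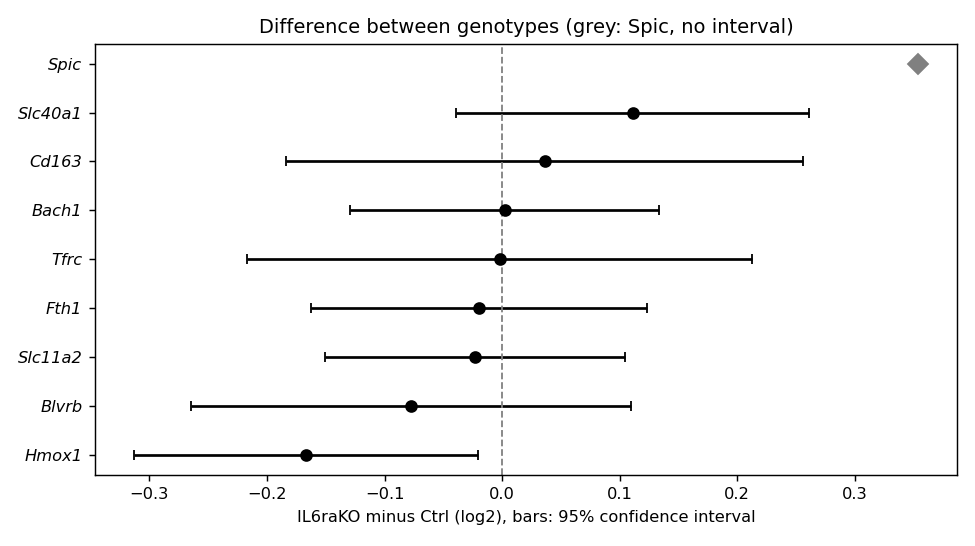
Difference in log2 expression, IL6raKO minus Ctrl (x axis), with 95% confidence intervals for the 8 genes that were tested and a grey diamond without interval for Spic. The Hmox1 interval, -0.31 to -0.02, lies below 0, and the 7 others include 0.

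Bach1, the heme-sensing repressor of Spic, averaged 8.33 in IL6raKO and 8.33 in Ctrl. It was at 8.25, 8.34, 8.41 and 8.31 in IL6raKO, against 8.35, 8.28, 8.32 and 8.35 in Ctrl. The difference was 0.00 (95% confidence interval -0.13 to 0.13, limma adjusted p = 0.995). The transcript level says nothing of the BACH1 protein, whose stability heme controls.

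Hmox1 encodes the inducible heme oxygenase, which opens the heme ring and releases iron, and its values leaned against those of Spic. It was at 11.52, 11.47, 11.55 and 11.6 in IL6raKO, against 11.58, 11.79, 11.77 and 11.68 in Ctrl. The groups overlapped only through Ctrl replicate 1 and IL6raKO replicate 4. The difference was -0.17 (SE 0.07, unadjusted p = 0.0291 and adjusted p = 0.669 over all genes in limma), so Hmox1 was not called. With any 1 array left out it lay between -0.21 and -0.14.

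Blvrb, a reductase of biliverdin, the product of heme oxygenase, was at 8.95, 8.94, 8.89 and 8.85 in IL6raKO, against 8.72, 9.04, 9.08 and 9.1 in Ctrl. Ctrl replicate 1 was below every other array and the 3 other Ctrl arrays were above every IL6raKO array. The difference was -0.08 (95% confidence interval -0.26 to 0.11, limma adjusted p = 0.864). Without Ctrl replicate 1 it was -0.17 (limma adjusted p = 0.512).

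Cd163, the scavenger receptor for complexes of hemoglobin and haptoglobin, was dim, at 5.51, 5.86, 5.64 and 5.98 in IL6raKO, against 5.81, 5.75, 5.57 and 5.7 in Ctrl. The IL6raKO arrays held both the lowest and the highest value. The difference was 0.04 (95% confidence interval -0.18 to 0.26, limma adjusted p = 0.958). With 1 array left out it lay between -0.04 and 0.11.

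Slc40a1 encodes ferroportin, the only known cellular iron exporter of mammals, and had the largest difference in the direction of Spic among the 8. It was at 10.21, 10.31, 10.13 and 10.11 in IL6raKO, against 9.98, 10.09, 10.16 and 10.09 in Ctrl. IL6raKO replicates 1 and 2 lay above all Ctrl arrays, and Ctrl replicate 3 lay above IL6raKO replicates 3 and 4. The difference was 0.11 (95% confidence interval -0.04 to 0.26, limma adjusted p = 0.747), within the spread between replicates. It was 0.07 without IL6raKO replicate 2.

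Import and storage genes had differences near 0. Tfrc, the transferrin receptor, was at 11.51, 11.73, 11.99 and 11.81 in IL6raKO, against 11.8, 11.8, 11.85 and 11.6 in Ctrl. Its lowest and highest values were both IL6raKO arrays, and the difference was 0.00 (95% confidence interval -0.22 to 0.21, limma adjusted p = 0.998). Slc11a2, the divalent metal transporter DMT1, had the narrowest range of the 9 genes, 0.14 between the lowest and the highest array. Its values were 8.19, 8.11, 8.21 and 8.2 in IL6raKO, against 8.19, 8.15, 8.25 and 8.21 in Ctrl. The genotypes differed by -0.02 (95% confidence interval -0.15 to 0.10, adjusted p = 0.953 in limma). Fth1, the heavy chain of ferritin, which oxidises and stores iron, was at 13.25, 13.19, 13.15 and 13.29 in IL6raKO, against 13.33, 13.26, 13.24 and 13.12 in Ctrl. The difference was -0.02 (95% confidence interval -0.16 to 0.12, limma adjusted p = 0.967).

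Other genes were read from 11 lists ordered by role, 9 of iron and heme handling and 2 of regulators and oxidant response targets. Together they are called the iron and heme lists below. Of 67 measured genes in them beside those above, 0 passed over all genes in limma, and their median difference was -0.02. At an unadjusted p under 0.05, 1 was higher and 3 were lower, where 2.74% of all genes were higher and 4.54% lower. The 1 higher gene was Flvcr1, which encodes a heme exporter, at 10.89, 10.89, 10.78 and 10.86 in IL6raKO, against 10.83, 10.72, 10.67 and 10.43 in Ctrl. Its difference was 0.19 (SE 0.08, limma adjusted p = 0.67), and it was 0.12 without Ctrl replicate 4, whose value was the lowest. It was also 0.12 when the gene's probe sets were averaged instead of the brightest being used (limma adjusted p = 0.726).

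The 3 lower genes were Gsr, Hfe and Slc22a17, and the groups did not overlap for any of them. Of the 67 genes, these 3 lay entirely below Ctrl and 2, Alas1 and Nfe2l2, entirely above. Over all genes the shares were 2.37% below and 2.07% above. Gsr, glutathione reductase and a target of NRF2, was at 8.91, 8.83, 8.92 and 8.9 in IL6raKO, against 9.27, 9.1, 9.09 and 9.18 in Ctrl (difference -0.27, SE 0.06, limma adjusted p = 0.448). Hfe, the hemochromatosis gene, which acts in iron sensing, was at 8.39, 8.2, 8.49 and 8.49 in IL6raKO, against 8.59, 8.67, 8.57 and 8.71 in Ctrl (difference -0.24, SE 0.08, limma adjusted p = 0.605). Slc22a17, a receptor for lipocalin 2, differed by -0.16 (SE 0.06, limma adjusted p = 0.669).

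By role, and with the genes described above counted in, the median difference was -0.05 for 4 genes of heme degradation, 0.01 for 9 of heme uptake and transport and 0.00 for 8 of heme synthesis. It was -0.04 for 10 of iron uptake, of which 9 were lower, as were 10803 of all 19938 genes. It was -0.02 for 6 of storage, 0.00 for 4 of export and 0.02 for 6 of mitochondrial iron. The lists of 8 sensing and hormone genes and of 4 siderophore and lactoferrin genes had the lowest medians, -0.11 and -0.13, and 5 of 8 and 4 of 4 of their genes were lower. Of these genes, 3 of 8 and 2 of 4 were dim, below the median level of all genes. In heme degradation, Blvra, the other biliverdin reductase, differed by 0.07 and Hmox2, the constitutive heme oxygenase, by -0.01.

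Among genes of import, the metalloreductase Steap4 differed by -0.16 and Tfr2, the second transferrin receptor, by -0.12. In storage, Ncoa4, the receptor that carries ferritin to the lysosome, differed by 0.09 and Ftl1, the ferritin light chain, by -0.07. In export, the copper oxidases Cp and Heph differed by -0.06 and -0.01. Alas1, the first enzyme of heme synthesis, lay above Ctrl in all 4 IL6raKO arrays with a difference of 0.08 (limma adjusted p = 0.783), and Urod differed by -0.09. Abcg2, a transporter that can carry porphyrins, differed by 0.12, the BMP co-receptor Hjv by -0.24, the mitochondrial transporters Abcb6 and Slc25a28 by -0.08 and 0.08, and Lcn2, lipocalin 2, by -0.20. None of these passed over all genes. Steap4, Tfr2, Cp, Heph and Hjv were dim, below the median level of all genes. Of the 37 genes named from the lists, by likeness or as Il6ra, 21 moved by over 1.5 times with 1 array left out, as did 7 of the 8 iron handling genes tested. For differences near 0, such as those of Bach1 and Tfrc, a small shift is enough to pass that ratio. The share over all genes was not counted. Blvra was at 0.00 without Ctrl replicate 1, Steap4 at -0.07 without IL6raKO replicate 2, Abcg2 at 0.06 without IL6raKO replicate 3 and Lcn2 at 0.00 without IL6raKO replicate 1.

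Among regulators, Nfe2l2, which encodes NRF2, the activator that competes with BACH1, was at 12.02, 11.99, 11.91 and 11.93 in IL6raKO, against 11.89, 11.86, 11.85 and 11.71 in Ctrl. All 4 IL6raKO values lay above the Ctrl values, and the difference was 0.13 (SE 0.06, limma adjusted p = 0.693). Its inhibitor Keap1 differed by 0.08. The median of the 7 heme and oxidant regulators was 0.00. Of 9 oxidant response targets 7 were higher and 2 lower (median 0.04), with Gsr on the lower side and Txnrd1, thioredoxin reductase, at 0.12.

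**Figure D3:**
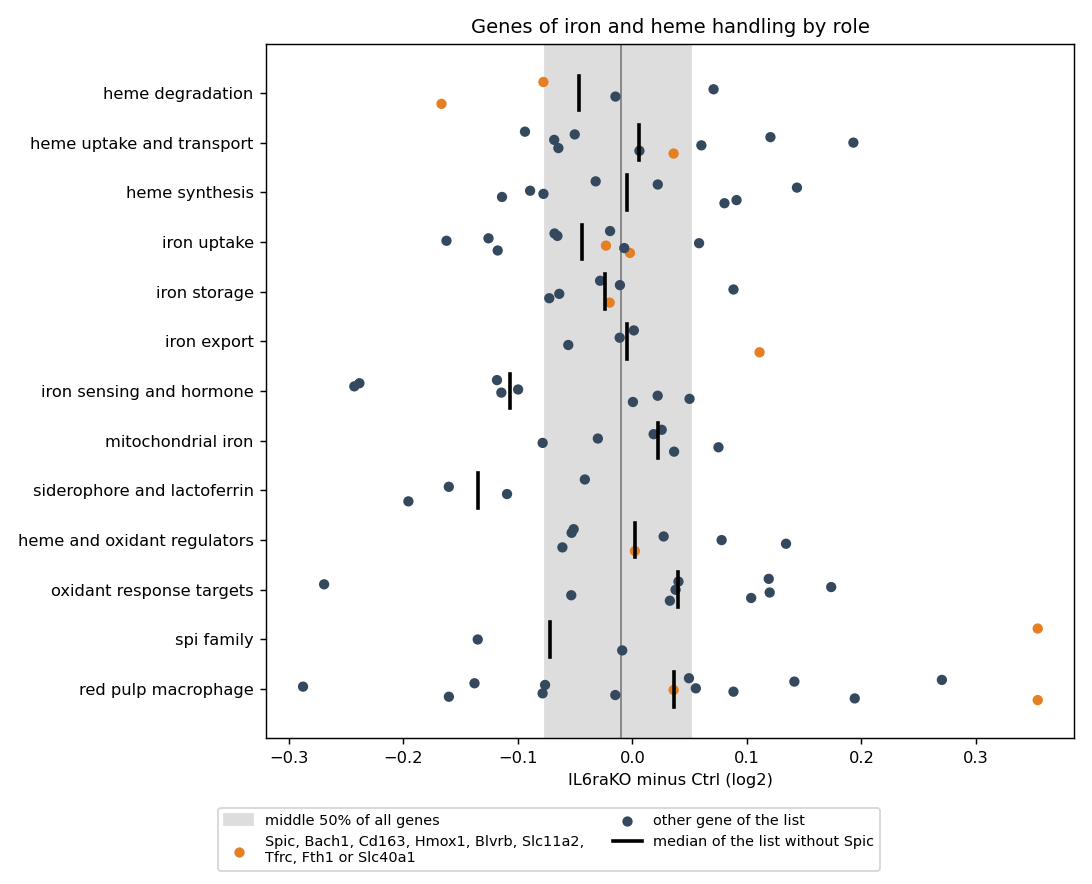
Difference in log2 expression, IL6raKO minus Ctrl (x axis), of every measured gene in 13 lists (rows), with black bars at each list's median without Spic and a grey band over the middle 50% of all genes, -0.08 to 0.05. Spic at 0.35, drawn in its 2 lists, lies to the right of every other gene shown.

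Neither of the measured relatives of Spic passed over all genes. Spi1, which encodes PU.1, was at 9.5, 9.46, 9.45 and 9.42 in IL6raKO, against 9.43, 9.45, 9.55 and 9.44 in Ctrl, and differed by -0.01 (95% confidence interval -0.14 to 0.12, limma adjusted p = 0.984). Spib, a relative found in B cells and plasmacytoid dendritic cells, was dim and differed by -0.13 (limma adjusted p = 0.788).

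Other genes of red pulp and tissue-resident macrophages pointed both ways. Of 13 measured beside Spic, 0 passed over all genes in limma, 7 were higher and 6 lower, and the median was 0.04. At an unadjusted p under 0.05, 1 of the 13 was higher and 2 were lower, beside 2.74% and 4.54% of all genes. The higher one was Axl, a receptor kinase for uptake of dying cells, at 7.61, 7.78, 7.71 and 7.47 in IL6raKO, against 7.36, 7.26, 7.32 and 7.55 in Ctrl. Its difference was 0.27 (SE 0.09, limma adjusted p = 0.6), and 0.33 without Ctrl replicate 4, the only Ctrl array within the IL6raKO range.

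The lower ones were Cd5l and Timd4. Cd5l, a secreted scavenger protein, was at 9.73, 10.02, 10.12 and 9.99 in IL6raKO, against 10.12, 10.59, 10.12 and 10.18 in Ctrl (difference -0.29, SE 0.12, limma adjusted p = 0.669). Without Ctrl replicate 2 the difference of Cd5l was -0.17. Timd4, a phosphatidylserine receptor, was at 6.16, 6.16, 6.1 and 6.14 in IL6raKO, against 6.35, 6.33, 6.22 and 6.21 in Ctrl (difference -0.14, SE 0.06, limma adjusted p = 0.67).

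Axl was also among the genes that varied most like Spic. Unnamed gene models and genes under the 25th percentile of level were left out when the genes most like Spic were named. Among the genes kept, the highest Pearson correlations with Spic over all 8 arrays were those of Pik3cb (r = 0.95), Dennd1b (0.95), Axl (0.94), Capn5 (0.94) and Plekhm1 (0.94). Their Spearman's rho lay between 0.81 for Dennd1b and 1 for Capn5. The genotype difference is part of these values, since all 5 genes were higher in IL6raKO, by 0.16 for Plekhm1 to 0.27 for Axl. Measured as deviations from the genotype means, Axl kept an r of 0.92, and 0.87 without Ctrl replicate 4. Among the genes kept, the highest values of that kind were for Ptgis (0.98) and for Ntn4, B4gat1, Hcfc1 and Fam117a (0.97 each). With 19938 genes and 8 arrays, high values arise in numbers, so these are given as a description.

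Of the iron handling genes, Slc40a1 had the highest r with Spic over all 8 arrays (0.72) and Hmox1 the lowest (-0.81). Within genotypes, r was 0.53 for Slc40a1, 0.49 for Blvrb and 0.25 for Bach1. It was -0.18 for Cd163, -0.22 for Slc11a2, -0.40 for Hmox1, -0.48 for Tfrc and -0.80, the lowest, for Fth1. Without Ctrl replicate 4, r within genotypes was 0.75 for Slc40a1, 0.29 for Blvrb and 0.13 for Bach1. For the others it was then -0.18 for Tfrc, -0.27 for Cd163, -0.45 for Hmox1, -0.50 for Slc11a2 and -0.55 for Fth1. By r over all arrays, Slc40a1 ranked 474 of 19938, counting Spic itself as the first, and by r within genotypes it ranked 3685. The genotype difference, on which Spic was selected, is part of every r over all arrays. The r over all arrays was between -0.46 for Fth1 and 0.12 for Bach1 in the other 6. All points share the 8 arrays and their normalization.

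**Figure D4:**
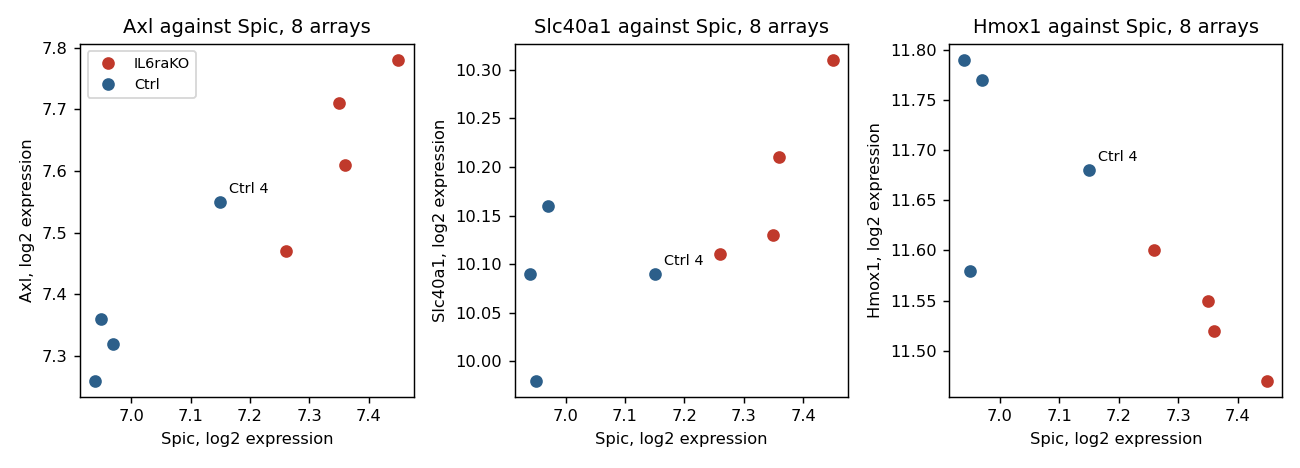
Log2 expression of Axl, Slc40a1 and Hmox1 (y axes) against that of Spic (x axis), 1 point per array, with IL6raKO in red and Ctrl in blue. Ctrl replicate 4 is marked: its Spic (7.15) and Axl (7.55) were the highest of the Ctrl arrays.

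Markers of other cells that such cultures can hold also differed in Ctrl replicate 4. Many of them were dim. Below the median level of all genes were 6 of 6 B cell, 8 of 10 neutrophil and 3 of 5 erythroid markers. So were 5 of 7 T and NK cell and 4 of 8 mast cell and basophil markers. The same held for 5 of 7 dendritic cell and 6 of 8 stromal markers. Whether such cells were present was not tested. The values that follow are the median deviation of a list from the means over all 8 arrays. The 5 measured of 13 erythroid markers, which leave out the globins because their probe sets are shared, lay between -0.04 and -0.02 in IL6raKO and between -0.02 and 0.26 in Ctrl, where replicate 4 was the highest. The 8 mast cell and basophil markers ranged from -0.38 to 0.21 in IL6raKO and from -0.21 to 0.39 in Ctrl, again highest in replicate 4. The 6 B cell markers ranged from -0.10 to -0.02 in IL6raKO and from -0.01 to 0.18 in Ctrl. The neutrophil list reached 0.19 and the T and NK cell list 0.07 in Ctrl replicate 4, also their highest array, while the dendritic cell and stromal lists were highest in another Ctrl array.

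As differences between genotypes, the list medians were -0.14 for erythroid, -0.15 for mast cell and basophil, -0.14 for B cell, -0.06 for neutrophil, -0.07 for dendritic cell, -0.04 for stromal and -0.02 for T and NK cell markers. Without Ctrl replicate 4 the medians were -0.07 for erythroid, -0.05 for mast cell and basophil, -0.07 for B cell, 0.01 for neutrophil and -0.11 for dendritic cell markers. Of their 51 genes, 0 had an adjusted p under 0.05 in limma. The part of these cells in the values of Spic and the iron handling genes was not tested, and the difference of Spic was 0.40 without Ctrl replicate 4.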

How the data were processed

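Biotin-labelled RNA of 8 macrophage cultures was measured on Affymetrix arrays that cover whole transcripts. The log2 expression values are the deposited ones, for 35556 probe sets. The submitters' processing notes name RMA and R 2.13.1, and any further step was not given in the sources used here. That the scale is log2 was read from the range of the values, 1.96 to 14.2. In GEO's platform annotation 21789 probe sets carried a single symbol, and the brightest was used for each of 19938 genes. Each of the 9 measured genes of the set had 1 probe set.

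IL6raKO was compared with Ctrl in limma 3.58.1 (R 4.3.3) on all 8 arrays and all genes, without covariates, with two-sided p-values and Benjamini-Hochberg adjustment over all genes. The labels do not say that each replicate was a separate animal, and p-values then cover only the spread among these arrays, which may be technical. The procedure was tested on simulated data, drawn as independent normal values for each gene without an outlying array. Such data do not test the effect of an array like Ctrl replicate 4. The members and lists were chosen with earlier results of these data known. Genes named from the lists were the 2 of lowest p (3 for red pulp macrophages), and the 5 most like Spic by each measure, leaving out unnamed gene models and genes under the 25th percentile of level. The files used here give no scan date or slide. Promoters are RefSeq sequences of GRCm38.p6. The array files name no build.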

Additional observations from a re-analysis of the deposited data

Results flagged for a closer look

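Within a group of 4, a value was singled out when its gap to the nearest other exceeded, as a share of the group's range, Dixon's 95% critical value. Of 134 such sets of 4 values, 11 passed, where chance would give about 6.7 for independent, unselected sets. These sets share genes, and they include Spic and genes chosen for varying like Spic, such as Hcfc1. The count of 11 can therefore not be weighed against that number. In Ctrl replicate 4, Spic was at 7.15 (the other Ctrl arrays 6.94 to 6.97), Hcfc1 at 8.71 (8.56 to 8.57) and the erythroid list at a median deviation of 0.26 (-0.02 to 0.01). In the other Ctrl arrays, Blvrb was at 8.72 in replicate 1 (9.04 to 9.1 elsewhere), Hmox2 at 9.58 in replicate 2 (9.67 to 9.69), Cd5l at 10.59 in replicate 2 (10.12 to 10.18) and Spi1 at 9.55 in replicate 3 (9.43 to 9.45). In IL6raKO, Spib was at 5.16 in replicate 1 (5.41 to 5.44), Slc22a17 at 6.91 in replicate 4 (7 to 7.01), the siderophore and lactoferrin list at -0.30 in replicate 1 (-0.02 to 0.04) and the T and NK cell list at -0.09 in replicate 1 (0.01 in the others).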

How the results depend on the processing

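Of the 8 genes tested beside Spic, 0 passed over all genes under each of 9 other settings (the filter at the median level leaves out the dim Cd163) and with any 1 of the 8 arrays left out, and at an unadjusted p under 0.05 the count was 1. The difference of Spic lay between 0.33 and 0.37 in those settings and between 0.32 and 0.40 with an array left out. No gene of the iron and heme lists or the red pulp list was called in any of these settings. The count of called genes over all genes, 6, did depend on the setting: 22 with a trended and robust variance model, 11 among genes above the median or the 25th percentile of level, 3 with quantile normalization again, 0 with all probe sets tested, 12 at an adjusted p under 0.1, 1452 at an unadjusted p under 0.05, and 0 to 1 with an array left out. Deviations of arrays with the same replicate number were nearly uncorrelated between the genotypes (-0.01 to 0.04). That does not show whether those cultures were prepared together. With the replicate block 0 genes were called. The median of the iron and heme lists was 0.02 among genes above the median level and -0.05 after centring on the 75th percentile, settings that by construction drop dim genes or shift every gene. Among genes above the median level, the dendritic list was at 0.00 and the stromal list at -0.09. With an array left out, medians lay between -0.03 and -0.01 for the iron and heme lists, -0.01 and 0.06 for the red pulp list, -0.19 and -0.07 for the B cell list and -0.07 and 0.01 for the T and NK cell list.

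Differences near 0 changed sign. Bach1 was at -0.02 with quantile normalization again and -0.03 after centring, B4gat1 at -0.02 in both, Heph at 0.00 with quantile normalization, and Ntn4 at 0.01 there and with array weights. With an array left out, the ranges were -0.03 to 0.03 for Bach1, -0.08 to 0.08 for Tfrc, -0.04 to 0.11 for Cd163, -0.06 to 0.01 for Fth1, -0.04 to 0.00 for Slc11a2, -0.04 to 0.01 for Hmox2, -0.07 to 0.03 for Heph, -0.02 to 0.02 for Spi1, -0.38 to 0.00 for Lcn2, -0.03 to 0.07 for B4gat1 and -0.03 to 0.03 for Ntn4. Il6ra was called with the trended model (adjusted p = 0.00762), above either level filter (0.0142 and 0.0328) and after centring (0.0438), but not with the replicate block (0.27), all probe sets tested (0.337), quantile normalization again (0.0555), array weights (0.0789), the mean of probe sets (0.059) or any 1 array left out (0.0528 to 0.222). Why these values moved was not tested. The number of arrays limits the precision.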
